A study of Mus musculus with 6 samples.

Results

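The 96 h list of accessible chromatin regions describes E14 mouse embryonic stem cells, a line derived from the blastocyst, 96 h after the inhibitors and cytokine that hold them in the naive state were withdrawn. Every interval of that list was taken, by position alone, which gave 78055 of the 258093 intervals in the 3 lists of the series. Open DNA was read by ATAC-seq, where an enzyme inserts adapters for sequencing wherever it can reach the DNA, in 3 groups of 2 samples each, A and B. The 2iL group was kept in N2B27 medium with the GSK3 inhibitor CHIR99021 at 3 µM, the MEK inhibitor PD0325901 at 1 µM and the cytokine LIF. The 48 h group and the 96 h group were plated in the same medium, which was exchanged the next day for N2B27 alone, and were collected 48 h and 96 h after the exchange. All 3 groups came from the same line, the labels give no other treatment, and 100000 live cells went into each sample. Samples A and B of a group share 1 deposited list, and nothing in the labels says whether they were separate cultures. The spread between samples could therefore not be measured, and times are set side by side with neither a test nor a p-value. Positions are on mm10.

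Open chromatin marks DNA that is free of tightly packed nucleosomes. Regions at gene starts, the promoters, are where transcription begins, and regions away from them include enhancers, which act on genes over a distance, and boundary sites. When embryonic stem cells leave the naive state they pass through a formative stage like that of the early post-implantation embryo, and in N2B27 without inhibitors many of them then turn to neural ectoderm. Most promoters of genes that all cells use lie in CpG islands, stretches rich in CG dinucleotides that vertebrate genomes otherwise lack.

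The starts of 6 genes show what the promoters in and out of the 96 h list look like. Each line gives the 250 bases before a RefSeq transcription start on GRCm38.p6, the assembly of mm10, read 5′ to 3′ on the strand of the gene, with every CG dinucleotide in capitals. The first 3 have the strongest 96 h intervals at a gene start with a listed promoter, Sox2 has one of the widest, and Hprt and Alb have none at their starts. Zfp935 encodes a zinc-finger protein, Cfdp1 a craniofacial development protein, Tubgcp5 a subunit of the ring that nucleates microtubules, Sox2 a pluripotency and neural transcription factor, Hprt a housekeeping enzyme of purine salvage, and Alb serum albumin of the liver.
Zfp935, chr13:62466813-62467062, minus strand: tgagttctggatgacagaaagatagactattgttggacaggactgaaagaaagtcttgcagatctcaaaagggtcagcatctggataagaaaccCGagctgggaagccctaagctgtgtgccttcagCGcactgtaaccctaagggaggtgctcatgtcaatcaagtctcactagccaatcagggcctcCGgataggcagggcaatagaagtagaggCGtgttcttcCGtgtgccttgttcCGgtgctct
Cfdp1, chr8:111854338-111854587, minus strand: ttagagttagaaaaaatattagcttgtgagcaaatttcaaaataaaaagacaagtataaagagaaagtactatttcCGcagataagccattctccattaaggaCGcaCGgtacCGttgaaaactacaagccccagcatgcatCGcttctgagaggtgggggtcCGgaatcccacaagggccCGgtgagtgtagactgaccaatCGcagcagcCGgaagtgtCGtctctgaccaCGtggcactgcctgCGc
Tubgcp5, chr7:55793875-55794124, plus strand: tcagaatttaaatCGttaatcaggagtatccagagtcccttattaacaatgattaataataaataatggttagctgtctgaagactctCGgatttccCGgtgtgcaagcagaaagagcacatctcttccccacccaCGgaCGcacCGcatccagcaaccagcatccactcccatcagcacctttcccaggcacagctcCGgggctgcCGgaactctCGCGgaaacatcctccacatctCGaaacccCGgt
Sox2, chr3:34649745-34649994, plus strand: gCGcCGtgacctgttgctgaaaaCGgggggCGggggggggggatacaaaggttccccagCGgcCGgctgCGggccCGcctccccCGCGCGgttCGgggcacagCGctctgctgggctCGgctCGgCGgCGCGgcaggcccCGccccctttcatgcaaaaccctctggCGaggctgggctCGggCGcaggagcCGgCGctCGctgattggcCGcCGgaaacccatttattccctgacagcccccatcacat
Hprt, chrX:52987828-52988077, plus strand: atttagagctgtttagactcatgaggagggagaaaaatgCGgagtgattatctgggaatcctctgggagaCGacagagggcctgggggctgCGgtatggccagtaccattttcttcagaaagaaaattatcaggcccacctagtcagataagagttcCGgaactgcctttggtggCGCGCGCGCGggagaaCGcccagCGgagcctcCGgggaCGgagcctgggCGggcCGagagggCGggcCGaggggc
Alb, chr5:90460620-90460869, plus strand: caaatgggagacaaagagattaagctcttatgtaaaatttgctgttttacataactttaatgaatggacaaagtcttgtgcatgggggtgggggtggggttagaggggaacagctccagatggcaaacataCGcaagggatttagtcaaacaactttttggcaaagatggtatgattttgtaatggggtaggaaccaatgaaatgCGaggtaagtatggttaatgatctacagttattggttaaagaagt
The 96 h summit nearest to the start, where the pile of reads is highest, lay 68 bp before it at Zfp935, 12 bp before it at Cfdp1, 2 bp inside the gene at Tubgcp5 and 98 bp before it at Sox2. The nearest summit was 64696 bp away at Hprt and 20853 bp away at Alb. The printed stretch held 27 CG at Sox2, 12 at both Cfdp1 and Tubgcp5, 6 at Zfp935, 17 at Hprt and 2 at Alb. The starts of Zfp935, Cfdp1, Tubgcp5 and Sox2 were open in all 3 lists.

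A typical 96 h region was well under 1 kb wide and held more than 1 summit. Widths ran from 150 bp to 3140 bp, with a median of 645 bp and quartiles of 444 bp and 915 bp. A single summit was listed in 29494 intervals, 37.8%, with a median width of 386 bp, and more than 1 in 48561, 62.2% (61.9 to 62.6; such ranges are exact binomial 95% limits, covering only counting error and taking each region as independent of its neighbours). Another 32.1% held 2 summits, 17.5% held 3, 7.64% held 4, and the highest number was 11. Median width was 646 bp with 2 summits, 911 bp with 3 and 1178 bp with 4, and it was 2047 bp with 7 or more. Neighbouring summits of an interval were a median of 265 bp apart, with quartiles of 235 bp and 313 bp.

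The 2iL, 48 h and 96 h lists held 91228, 88810 and 78055 intervals over 66.8, 64.5 and 55.6 Mb. Their 187330, 185562 and 166089 summits came to a mean of 2.05, 2.09 and 2.13 for each interval, and median widths were 677, 658 and 645 bp. The median fold enrichment over background at the strongest summit, which is the authors' value, was 8.79 at 96 h with a range of 1.59 to 37.05. The pile of reads behind a summit could be recovered from fold and p for 73.6% of 96 h intervals, those with a −log10 p under 290, and its median there was 161 tags. This assumes that fold is tags plus 1 over background plus 1, a form that no source used here states. The most frequent background recovered was 14.2, 15.2 and 13.99 tags per position in the 2iL, 48 h and 96 h lists. An effect of these differences on the number of intervals was not tested.

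Open regions were spread unevenly along the genome. Neighbouring 96 h intervals were a median of 10985.5 bp apart, 9.04% of the gaps were under 1 kb and 6.12% were over 100 kb. Of the 18035 windows of 100 kb that held an interval, 1730 held 10 or more, and these 9.59% of windows held 27.9% of the intervals. The densest was chr7:27300001-27400000, with 28 intervals and 54 summits at Ltbp4, a binding protein of latent TGF-beta, Shkbp1 and Sptbn4, a spectrin of the axon. The next, chr13:23500001-23600000, held 26 intervals, 15 of them at gene ends, in a cluster of 15 histone genes. At 25 intervals each followed windows around Ppard and Tead3 on chromosome 17, around Abt1 on chromosome 13, around Fosb and Ercc1 on chromosome 7, and around Stk11 and Cirbp on chromosome 10. The windows were picked for these counts, which are given as a description.

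By the median, regions were widest at gene ends. An interval was called gene end when its strongest summit lay within 1 kb of the nearest start or far end of a protein-coding gene, and this held for 15270 intervals, 19.6% (19.3 to 19.8). Another 33564, 43.0%, lay inside a gene and farther from its ends, 23292, 29.8%, lay outside genes and 1 to 100 kb from an end (distal), and 5929, 7.60%, lay in gene deserts, over 100 kb from any end. Median width was 1009 bp at gene ends, 593 bp inside genes, 581 bp at distal sites and 537 bp in deserts. Median fold was 12.7 at gene ends, against 7.98, 8.34 and 8.47 at the other places. A single summit was found in 15.1% of gene-end intervals, against 42.0%, 42.9% and 52.3% of those inside genes, distal and in deserts. With 19.6% of the intervals, gene ends held 28.0% of the listed base pairs and 27.4% of the summits.

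**Figure D1:**
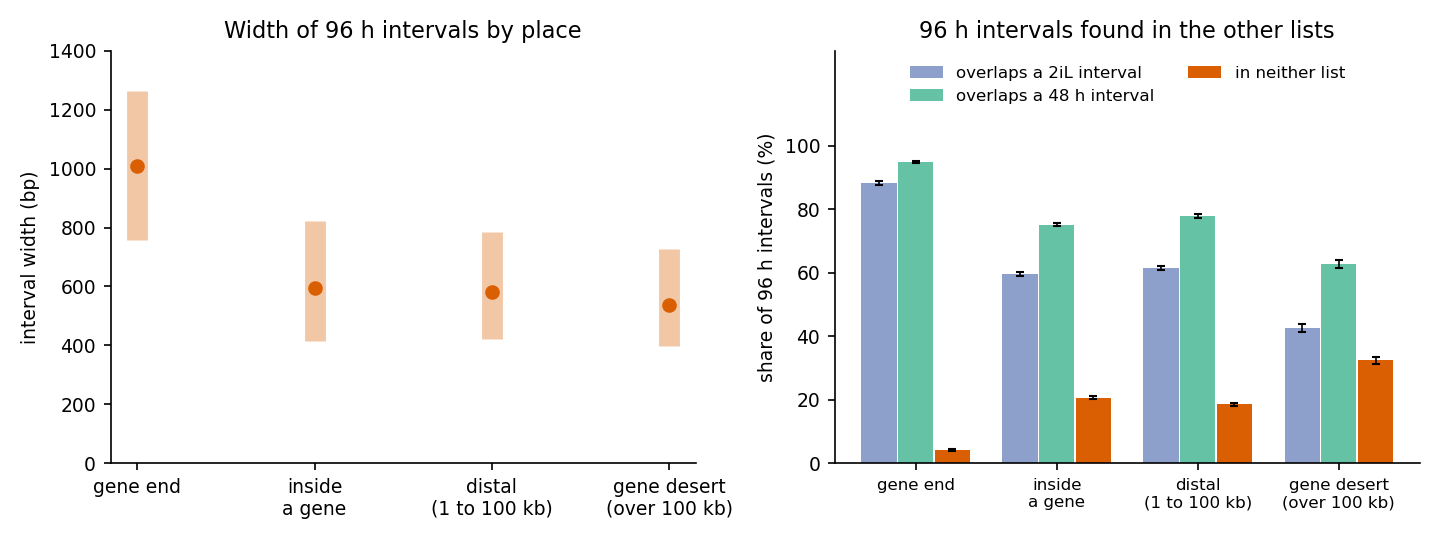
Left, width of the 96 h intervals in base pairs at gene ends, inside genes, at distal sites and in gene deserts, with the median as a point and the quartiles as a bar; the gene-end median of 1009 bp lies above the medians of 537 to 593 bp elsewhere. Right, the share of the 96 h intervals of each place that overlaps a 2iL interval, overlaps a 48 h interval or lies in neither list, in percent with exact 95% intervals; the share in neither is 4.18% at gene ends and 32.4% in deserts.

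The places also differed in how often a 96 h region was listed at the earlier times. By an overlap of at least 1 bp, 50369 of the 78055 intervals lay on a 2iL interval, 64.5% (64.2 to 64.9), and 61593 on a 48 h interval, 78.9% (78.6 to 79.2). At gene ends 88.3% lay on a 2iL interval and 94.9% on a 48 h interval. Inside genes these shares were 59.7% and 75.2%, at distal sites 61.5% and 77.9%, and in deserts 42.7% and 62.8%. The 13788 intervals on neither list had a median width of 451 bp and a median fold of 6.07, against 760 bp and 10.96 for the 47695 that lay on both. Weak intervals were the ones most often absent earlier: of the 19514 with the lowest fold, under 5.93, 43.4% lay on a 2iL interval, against 87.7% of the 19514 with the highest, from 13.4 up. The same strong intervals were at gene ends in 36.0% of cases and the weak ones in 13.0%. The share of intervals at gene ends was 16.6% in 2iL, 18.1% at 48 h and 19.6% at 96 h, while the number there was 15171, 16117 and 15270.

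Among gene ends, it was the start of the gene that was open. RefSeq promoters gave the direction of 17492 of the 21887 protein-coding genes, 79.9%. Of the 15270 gene-end intervals, 10456 lay at such a start, 68.5%, 1806 lay only at the far end of such a gene, 11.8%, and 3008 lay at genes whose direction was not at hand. Intervals at starts had a median width of 1060 bp and a median fold of 13.9, against 621.5 bp and 6.67 at far ends. Of the 17492 genes, 11119 had a 96 h summit within 1 kb of the start, 63.6% (62.8 to 64.3), and 2694 had one within 1 kb of the far end, 15.4% (14.9 to 15.9). In the 2iL, 48 h and 96 h lists the share of starts was 62.7%, 64.9% and 63.6%, and that of far ends was 16.9%, 18.5% and 15.4%. A further 2136 of the 96 h intervals away from gene ends lay within 1 kb of another listed start of a gene, and their median width of 990 bp was close to that of gene-end intervals.

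Summits sat on the start itself and in further maxima on either side of it. The nearest summit of an open start lay a median of 2 bp before it, with quartiles of 57 bp before and 59 bp inside the gene. Counted in steps of 50 bp over the 17492 genes, summits peaked just before the start, with 2630 in the last 50 bp, or 15.04 for every 100 genes. The count was down to 729, or 4.17 for every 100 genes, 100 to 150 bp inside the gene, and reached 2305, or 13.2, at 250 to 300 bp. On the outer side it was 651, or 3.72, at 200 to 250 bp and 1129, or 6.45, at 300 to 350 bp. A lower maximum, 7.87 for every 100 genes, followed at 450 to 500 bp inside the gene. At far ends no step exceeded 1.07 for every 100 genes, and the lowest value there, 0.172, was in the last 50 bp of the gene.

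**Figure D2:**
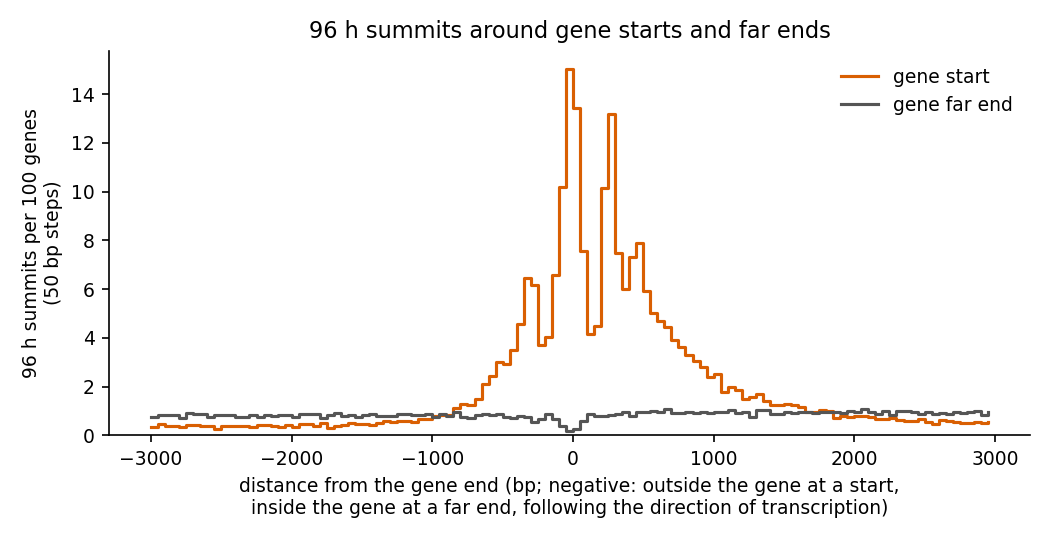
Number of 96 h summits for every 100 genes, in steps of 50 bp, against the distance from the start and from the far end of 17492 protein-coding genes, read in the direction of transcription. The curve for starts has maxima of 15.04 just before the start and 13.2 at 250 to 300 bp inside the gene, and the curve for far ends stays at or below 1.07.

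Paired starts that run away from each other were nearly all open. A start was called paired when a start on the other strand lay up to 1 kb before it. Of 1158 such starts, 1112 had a 96 h summit within 1 kb, 96.0% (94.7 to 97.1), against 10007 of 16334 other starts, 61.3% (60.5 to 62.0). The interval at the start was also somewhat wider at paired starts, with a median of 1148 bp and quartiles of 978.5 and 1357.5 bp, against 1088 bp with quartiles of 888.5 and 1338.5 bp at others. Paired starts share an interval in many cases, so they are not independent of each other.

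Whether a promoter was open went with the number of CG dinucleotides in it. The window here is the 300 bases from 250 before to 50 after a start, 21263 windows for the 17492 genes, and a window was called open when a 96 h summit lay in it, which held for 12117, 57.0% (56.3 to 57.7). Of 3841 windows with 0 to 2 CG, 4.32% were open (3.70 to 5.01). The share was 15.5% with 3 to 5 CG, 44.3% with 6 to 10, 78.6% with 11 to 15 and 88.9% with 16 to 20. It did not go higher than 91.4% (90.5 to 92.2), which was reached with 21 to 30 CG, and was 89.9% (88.8 to 91.0) with 31 to 67. Open windows had a median of 21 CG and the 9146 others a median of 3. The same shares in the 2iL, 48 h and 96 h lists were 3.64%, 4.09% and 4.32% for 0 to 2 CG and 89.8%, 91.5% and 91.4% for 21 to 30 CG. Among the promoters printed above, Sox2 has many CG and Alb few, while the start of Hprt is rich in CG and has no summit. Some E14 sublines are known to carry a deletion in Hprt, and whether these cells hold this sequence was not tested.

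**Figure D3:**
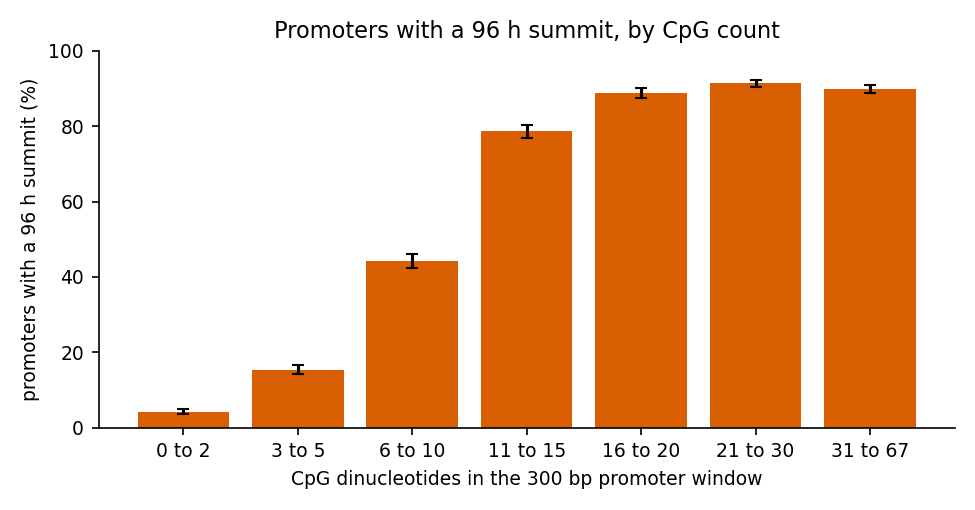
Share of 300 bp promoter windows that hold a 96 h summit, in percent with exact 95% intervals, by the number of CG dinucleotides in the window. The share is 4.32% with 0 to 2 CG, 44.3% with 6 to 10, and between 88.9% and 91.4% from 16 CG up.

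Short motifs also differed in frequency between open windows and the rest. Each motif was searched as letters on both strands, hits of different motifs may overlap, and the GC box, ETS, NRF1, CRE and E-box letters contain a CG themselves. A GC box, GGGCGG, the site of SP and KLF factors, was found in 46.2% of all windows, in 68.7% of open ones (67.9 to 69.5) and in 16.4% of the others (15.6 to 17.2). An ETS site, CCGGAAG, was in 17.7% of open windows and 3.47% of the others, and in 11.6% of all. The NRF1 core, GCATGCG, was in 6.31% and 1.96%, and in 4.44% of all. A TATA box, TATAAA, went the other way, with 5.71% of open windows (5.30 to 6.14), 21.7% of the others (20.9 to 22.6) and 12.6% of all. The homeodomain core TAATTA and the SOX core ACAATG were likewise less frequent in open windows, at 1.96% and 6.29%, than in the others, at 7.94% and 17.2%. The CCAAT box, the letters CCAAT, was in 38.6% of open windows and 37.6% of the others.

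Among windows with 11 or more CG, 10262 were open and 1375 were not. There the GC box was in 75.4% (74.6 to 76.3) of open windows and 59.9% (57.2 to 62.5) of the others, the CCAAT box in 37.8% and 28.1%, and the ETS site in 19.8% (18.99 to 20.5) and 11.3% (9.72 to 13.1). The NRF1 core, at 7.23% (6.74 to 7.75) and 7.35% (6.02 to 8.85), had overlapping 95% limits. So had the E-box, CACGTG, at 11.002% (10.4 to 11.6) and 11.6% (9.99 to 13.5), while over all windows it was in 10.2% of open ones and 4.67% of the others. Limits also overlapped for the CRE letters TGACGT, part of the cAMP response element, at 12.5% (11.9 to 13.2) and 11.3% (9.65 to 13.1). Over all windows these letters were in 11.5% of open ones and 4.52% of the others. With 11 or more CG, the CTCF core AGGGGGC was in 19.3% and 15.9%, and the YY1 core AAGATGG in 6.95% and 4.07%. For the YY1 core the shares over all windows were 6.79% of open ones and 5.51% of the others, and the gap between open windows and the others was wider here for this core and for the CCAAT box. With 11 or more CG, the TATA box was in 4.82% of open windows and 7.85% of the others. The homeodomain core was in 1.49% and 3.13%, and the SOX core in 5.45% (5.02 to 5.90) and 7.13% (5.82 to 8.62), with overlapping limits. A match of letters is no evidence that the factor was bound. In the 250 bases printed above, Cfdp1 holds the CCAAT, ETS, TATA and E-box letters, Sox2 the GC box, CCAAT and CTCF letters, Zfp935 the CCAAT box, Hprt the GC box, and Alb the CCAAT and YY1 letters.

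Most protein-coding genes had few intervals and a small group had many. The locus of a gene was taken as all positions nearer to one of its ends than to any other gene's and within 100 kb, and an interval was counted at the gene whose locus held its strongest summit. An interval counted there need not act on that gene. By this count 17168 of 21887 genes had at least 1 interval at 96 h, 78.4%, and 4719 had 0. Of those 4719, 108 have listed positions in the first 3 Mb of a chromosome other than Y, where the 96 h list holds no interval. The median gene had 2 intervals and 5 summits, at a density of 4.25 intervals and 8.99 summits for each 100 kb of locus. At least 10 intervals were found at 1393 genes, 6.36%, which together held 27.7% of the intervals at loci, and 20 or more at 123 genes. In the 2iL, 48 h and 96 h lists, 1986, 1815 and 1393 genes had at least 10 intervals. A summit within 1 kb of an end was found at 14622 genes, 66.8%, at 96 h, and at 66.2% in 2iL and 68.6% at 48 h.

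Long loci had more intervals and short loci a higher density. The median number of intervals was 1 in loci of 10 to 50 kb and 3 in those of 50 to 100 kb. It was 4 in loci of 100 to 200 kb and 6 in those of 200 to 400 kb. Pooled over genes, density was 14.9 intervals for each 100 kb in loci under 10 kb, 6.74 in those of 10 to 50 kb, 3.56 in those of 100 to 200 kb and 2.64 in those of 200 to 400 kb. Across the 21887 genes, Spearman's rank correlation between the number of intervals and the length was 0.46 for the locus and 0.54 for the gene, given as a description since genes are not replicates. Genes with at least 10 intervals had a median locus of 180.6 kb and a median gene length of 103 kb, against 46.4 kb and 17.2 kb over all genes.

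The 15 genes with the most intervals at 96 h had 28 to 41 each, at loci of 164 to 400.0 kb. These genes were chosen by this count, so it is a description. In front was Grik3 (chr4:125490259-125714173), a kainate receptor subunit for glutamate, with 35, 39 and 41 intervals in 2iL, at 48 h and at 96 h. This first place held in none of the 4 alternatives tried: Bcor came first within 50 kb, Gse1 by nearest gene body, and Septin9 came first in the 50% of the list with the highest −log10 p, where Grik3 had 12, and with intervals closer than 500 bp joined. Septin9, a cytoskeletal GTPase, had 44, 46 and 40, and Bcor (chrX:12036737-12160516), a BCL6 corepressor and Polycomb subunit, had 26, 30 and 36. The zinc-finger factor gene Zfp423 had 29, 37 and 33, and Abr, a regulator of small GTPases, 28, 29 and 32. Cacna1a, the pore of a neuronal calcium channel, had 41, 39 and 31, and the podosome scaffold gene Sh3pxd2a had 32, 26 and 30.

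Next came 4 genes with 29 intervals each at 96 h. Prex1, an exchange factor of Rac, had 37, 34 and 29 in the 3 lists, and Igsf21, of the immunoglobulin superfamily, had 32, 34 and 29. The zinc-finger factor gene Casz1 had 24, 36 and 29, and Tead1, a transcription factor of the Hippo pathway, had 25, 22 and 29. The last 4 had 28 each at 96 h. Lmx1b (chr2:33560965-33641208), a LIM homeobox factor of midbrain and limb, had 16, 31 and 28. Rgs3, a regulator of G-protein signalling, had 22, 26 and 28, the chromatin reader gene Zmynd8 had 35, 34 and 28, and Smad6, an inhibitor of BMP signalling, had 26, 32 and 28. Just outside were Zmiz1, also with 28 but fewer summits, Med13l and Grm4 with 27, and Rnf220 and Tle3 with 26.

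Together the 15 genes had 452, 495 and 471 intervals in 2iL, at 48 h and at 96 h. At 96 h 9 of them had more than in 2iL and 6 had fewer, among genes picked by their 96 h count and with no such numbers over all genes given here. By place, 317 of the 471 lay inside genes, 67.3%, 134 were distal and 20 were at gene ends. Their median fold of 6.72 was below the median of 8.79 over all 96 h intervals, and their median width of 680 bp was near the 645 bp of all. The share found on neither earlier list was 3.23% at Cacna1a, 24.4% at Grik3 and 32.1%, the highest of the 15, at Rgs3, against 17.7% of all 96 h intervals. Only 3 of the 15 were also among the first 15 of the 2iL list, and 8 among those of the 48 h list.

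**Figure D4:**
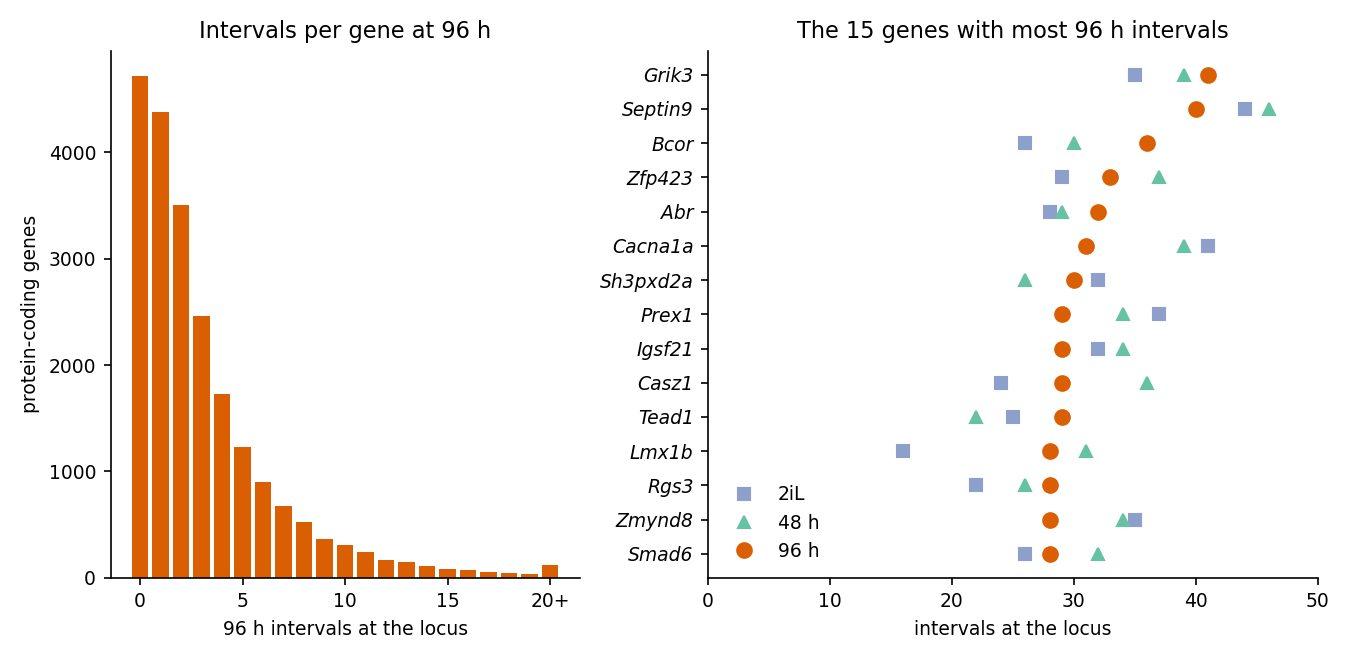
Left, the number of protein-coding genes with 0 to 19 and with 20 or more 96 h intervals at their locus; 4719 genes have 0 and 123 have 20 or more. Right, intervals at the locus in the 2iL, 48 h and 96 h lists for the 15 genes with the most at 96 h; they range from 28 to 41 at 96 h, and Lmx1b has 16 in 2iL and 28 at 96 h.

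Ranked by density, a different set of genes came first, with small loci. Among the 5042 genes with at least 5 intervals and a locus of at least 20 kb, the median density was 6.78 intervals for each 100 kb. Kdm6b, a demethylase of the Polycomb mark H3K27me3, was highest at 45.0, with 5, 8 and 10 intervals in 2iL, at 48 h and at 96 h over a locus of 22.2 kb. Cbx8, a chromobox subunit of Polycomb repressive complex 1, followed at 39.3, with 5, 7 and 10 intervals. Ppp1r13l, an inhibitor of p53, reached 38.7, Mex3a, an RNA-binding protein, 38.5, and Rcor2, a corepressor partner of the demethylase LSD1, 38.1. The others were Caly at 35.1, Id1, a BMP target that blocks bHLH factors, at 34.5, Dpf1, a BAF subunit of neurons, at 34.5, Tbkbp1 at 33.5 and Hoxd3 at 33.4. At 96 h these 10 genes had 7 to 10 intervals each. The strongest interval of these loci, at Ppp1r13l, had a fold of 16.3, while the strongest at Kdm6b had 8.03 and that at Rcor2 4.82. Joining intervals closer than 500 bp left 3 at Ppp1r13l, 3 at Rcor2 and 6 at Tbkbp1, and the list cut to its stronger 50% left 3 to 6 at each of the 10.

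The 8 widest gene-end regions were 2720 to 2872 bp wide, and were picked for this. The widest was at Dchs2, a large cadherin, with 10 summits, and next were Foxl2, a forkhead factor of the ovary, at 2865 bp, and Il3ra, a cytokine receptor chain, at 2864 bp. Arid1b, a BAF subunit, had 2850 bp, the ribosomal protein gene Rpl3 2818 bp, Sox2 2740 bp, the forkhead factor gene Foxo1 2734 bp and Numbl, a Notch regulator, 2720 bp. All 8 overlapped intervals of both earlier lists. In the 2iL, 48 h and 96 h lists the widest interval at Arid1b was 2888, 2820 and 2850 bp, and at Foxl2 it was 2797, 2884 and 2865 bp. At Sox2 it was 2560, 1375 and 2740 bp, where the 48 h list had 2 intervals in place of 1. At Foxo1 and Numbl the 2iL list had 2 intervals, the wider being 1541 and 1217 bp.

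By the authors' fold, the highest 5 at gene ends were at Lars2, a mitochondrial tRNA synthetase, at 33.7, Zfp935 at 33.5, Zfp960 at 32.4, Cfdp1 at 31.8 and Tubgcp5 at 31.7, with widths of 392 to 901 bp. The summit lay 2 to 110 bp from the gene end at 4 of them and 678 bp from the far end at Lars2. The highest 5 distal regions reached 33.7 to 37.05 and were 466 to 666 bp wide. The first lay 49.2 kb from St6galnac3 (chr3:153148822-153149287, 37.05), a sialyltransferase, and the others 53.3 kb from Usp3, 83.3 kb from Slc4a3, 7.93 kb from Efemp1 and 9.45 kb from Pcsk2, a prohormone convertase. All 10 overlapped an interval in both earlier lists. In their own lists the overlapping regions had folds of 14.8 in 2iL and 27.4 at 48 h at Pcsk2, and 20.1 and 33.3 at Lars2.

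Most markers chosen for the labelled cell type had an open gene end at 96 h. A summit within 1 kb of an end, found at 66.8% of all genes, is the measure here. Of 11 markers of embryonic stem cells, 10 had a 96 h summit within 1 kb of an end, the exception being Dppa4, and the numbers in 2iL, at 48 h and at 96 h were 9, 11 and 10. The intervals of these 11 markers, however, numbered 134, 120 and 81 in the 3 lists. The markers are a part of the naive and general pluripotency lists described below. In those, 15 of 20 and 12 of 14 genes had such a summit at 96 h. Dppa3, Nr5a2, Tcl1, Spp1, Pecam1 and Dppa2, which are not among the 11, had none. Formative and primed markers had such a summit at 5 of 6 genes, all but Otx2, with 70, 87 and 68 intervals. Otx2 had no summit within 1 kb of its listed ends in any of the 3 lists, but 8, 13 and 13 intervals at its locus. All 6 neural ectoderm markers had one, against 4 in 2iL, with 48, 52 and 63 intervals. Mesoderm and endoderm markers had one at 5 of 5 genes each, trophoblast markers at 3 of 5, extraembryonic endoderm markers at 3 of 4 and fibroblast markers at 4 of 5. With these few markers, an open gene end did not separate the types. In the longer lists below the counts differed more, with 22 of 22 neural ectoderm, 8 of 12 extraembryonic endoderm and 6 of 12 fibroblast genes. In a list made from many cells, a few cells with open chromatin and slight opening in all cells cannot be told apart.

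Gene lists were described by 3 numbers, namely the intervals of the median gene, the genes with 10 or more, and the genes with a summit within 1 kb of an end. Over all genes these stood at 2 intervals, 6.36% and 66.8%. The neural ectoderm list, transcription factors and markers of the early neural plate, had the highest median of the 15 lists, 11 intervals, with 12 of 22 genes at 10 or more and all 22 open at an end. Pax7 (chr4:139737059-139833530), a paired-box factor, had 15, 23 and 24 intervals in 2iL, at 48 h and at 96 h. The TALE homeobox factors Meis2 and Meis1 had 13, 21 and 24, and 11, 16 and 18. The list held 176, 217 and 247 intervals in the 3 lists, and 62 of the 247 were on neither earlier list, 25.1%, against 17.7% of all 96 h intervals. This share was 33.7% in the extraembryonic endoderm list, 28.3% in the axon guidance list, 25.3% in the definitive endoderm list and 24.2% in the mesoderm list. At 96 h 17 neural ectoderm genes had more intervals than in 2iL and 4 had fewer. These numbers were 8 and 2 in the definitive endoderm list and 20 and 5 among Hox genes. They were 3 and 9 among housekeeping genes and 1 and 19 among naive genes. The same numbers over all genes are not given here, so 17 and 4 cannot be read against them. The median locus was 117 kb, longer than the 46.4 kb of all genes, and the density of the median gene was 8.002 for each 100 kb, against 4.25. By density the list came after the Hox genes at 18.98, housekeeping genes at 11.8, formative genes at 10.6 and general pluripotency genes at 9.94. With intervals counted at the nearest gene body, the axon guidance list had the higher median, 15 against 11.

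Other neural lists were more mixed. The axon guidance and neural adhesion list had a median of 7.5 intervals, 18 of 20 genes open at an end and 9 with 10 or more, at long loci with a median density of 2.13. Slit1, a repellent of growing axons, had 16, 18 and 26 intervals in 2iL, at 48 h and at 96 h, all 26 inside a gene and none at an end of Slit1. Netrin 1, Ntn1, had 24, 14 and 21, and the semaphorin receptor gene Nrp1 had 9, 14 and 18. Neuron and glia genes had a median of 5 at a median locus of 111 kb, with a median density of 7.68 and 12 of 16 open at an end. Rbfox3, the neuronal splicing factor NeuN, had 11, 19 and 25 intervals, with an open end in the 48 h list only. The synaptotagmin gene Syt1 had 5, 7 and 9. Mbp, the myelin basic protein gene, had 18, 15 and 18.

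All 3 pluripotency lists had medians above the 2 intervals of all genes, at median loci longer than the 46.4 kb of all genes. In the naive, general and formative lists the median locus was 107, 61.6 and 82.3 kb. Their median density was 5.61, 9.94 and 10.6 for each 100 kb, against 4.25. Naive pluripotency genes had a median of 6 intervals with 15 of 20 open at an end, and 265, 188 and 136 intervals in 2iL, at 48 h and at 96 h. Their highest counts at 96 h were at the orphan receptor gene Esrrb with 17, the T-box factor gene Tbx3 with 15 and Nr5a2, another orphan receptor, with 13. Of the 136 intervals, 10 were on neither earlier list, 7.35%, against 17.7% of all 96 h intervals and 5.63% in the housekeeping list. General pluripotency genes had a median of 4.5, and 12 of 14 were open at an end. Sox2 had 21, 26 and 17 intervals in the 3 lists and Zfp281 20, 24 and 13, while Dppa4 had 0 at 96 h. Formative and primed genes had a median of 7 with 17 of 19 open at an end, and were led by Grhl2, an epithelial factor, with 22, 31 and 20, Lef1, a WNT effector, with 27, 26 and 18, and the DNA methyltransferase gene Dnmt3a with 12, 19 and 15.

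Genes of the other germ layers and of extraembryonic types had medians of 5 to 7.5 intervals, and an open end is to be read against the 66.8% of all genes. Median loci were 89.6 kb for mesoderm, 133 kb for definitive endoderm, 163 kb for extraembryonic endoderm and 54.5 kb for trophoblast, against 46.4 kb. In the same order the median densities were 6.39, 5.49, 5.21 and 7.40 for each 100 kb, against 4.25. Mesoderm and primitive streak genes had a median of 6 and 17 of 18 open at an end. Among them Tbx5, a T-box factor of heart and forelimb, had 7, 12 and 16 intervals in the 3 lists, Eomes had 10, 11 and 13, the homeobox gene Gsc had 15, 12 and 13, and Tbx6 had 0 at 96 h. Tbx6 still counted as open at an end, through a summit of an interval counted at a neighbouring locus. The gene without an open end was Msgn1. Definitive endoderm genes had a median of 7.5 and 9 of 12 open at an end. The forkhead gene Foxa2 had 12, 15 and 14 intervals, Gata4 5, 10 and 12, and Prox1 4, 13 and 11, and Cer1, a secreted inhibitor of Nodal, had 0. Extraembryonic endoderm genes had a median of 7 with 8 of 12 open at an end. The FGF receptor gene Fgfr2 had 6, 17 and 23, and Pdgfra and Lamb1 had 11 each at 96 h. Trophoblast genes had a median of 5 with 7 of 12 open at an end, the highest being Tfap2c with 23, 15 and 12, Gata3 with 6, 9 and 11 and Gcm1 with 6, 9 and 10, and Prl3d1 and Tpbpa had 0 at 96 h.

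The Hox genes, which set position along the body axis, lie side by side in 4 clusters, so their counts were low and their density high. The median gene had 3 intervals at a locus of 12.2 kb, which made 18.98 for each 100 kb, and 33 of 39 were open at an end. The Hoxa cluster had 21, 32 and 33 intervals in 2iL, at 48 h and at 96 h, Hoxb 31, 40 and 39, Hoxc 29, 37 and 35, and Hoxd 18, 26 and 21. Hoxd3, Hoxc4 and Hoxb9 had 8 each at 96 h, and Hoxa6, Hoxd11 and Hoxd12 had 0. Hoxa6 still counted as open at an end, through a summit of an interval counted at a neighbouring locus. Neighbouring Hox genes share regions, so they are not independent.

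Lists of blood and of liver, muscle and skin had medians below the 2 intervals of all genes. Their median loci of 29.3 and 38.9 kb were shorter than the 46.4 kb of all genes, and their median densities were 0 and 2.32 for each 100 kb. Blood and immune genes had a median of 0, with 1 of 16 open at an end. The integrin gene Itgam had 3 intervals at 96 h, and Ptprc, the leukocyte marker CD45, and Cd3e had 2 each. Cd3g, Cd4, Cd8a, Ms4a1, Cd79a, Itgax, Lyz2, Elane, Ncr1 and Fcer1a had 0. Cd4 was the 1 gene of the list that counted as open at an end, through a summit of an interval counted at a neighbouring locus. Terminal genes of liver, muscle and skin had a median of 1 with 8 of 16 open at an end. Apob had 5 intervals, Acta1 4 and Mylpf 3, and Fgb, Myh2, Ivl and Flg had 0. Fibroblast genes had a median of 3, above that of all genes, but at a median locus of 132 kb, against 46.4 kb. Their median density of 1.86 for each 100 kb was below the 4.25 of all genes, and 6 of 12 were open at an end. Col1a2 had 12 intervals, Col1a1 9 and Thy1 6, and Lum, Fap and S100a4 had 0.

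Housekeeping genes had a median of 2 intervals, equal to that of all genes, and 18 of 20 were open at an end. Their median locus was 27.4 kb, against 46.4 kb, and their median density 11.8 for each 100 kb, against 4.25. Ywhaz, a 14-3-3 protein gene, stood apart with 29, 25 and 21 intervals in the 3 lists, 17 of the 21 at distal sites and none within 1 kb of its listed ends, and Actb had 7 at 96 h. Hprt was the only member with 0, and had 0 in all 3 lists. The stretch without an interval around it, chrX:52912724-53052489 at 96 h, was 139.8 kb long, and it was 90.1 and 139.7 kb long in 2iL and at 48 h. As background, some E14 sublines are known to carry a deletion in Hprt. The labels give only E14, and whether these cells carry it was not tested.

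**Figure D5:**
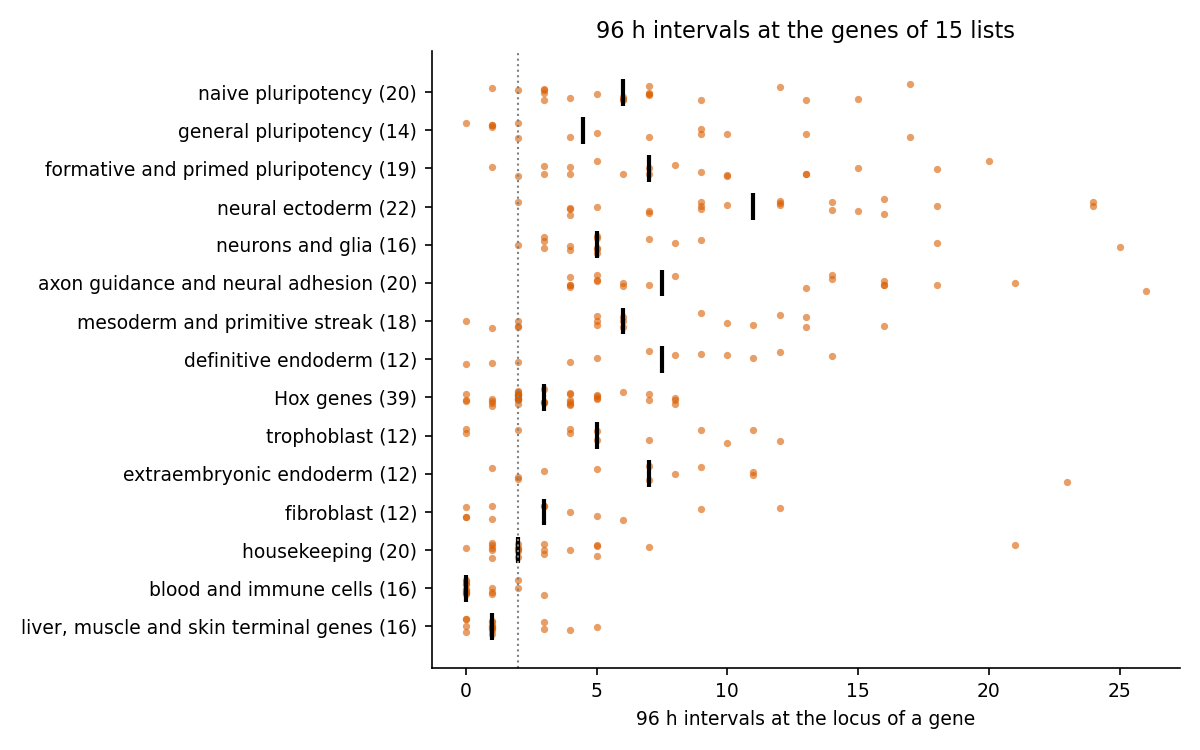
Number of 96 h intervals at the locus of each gene, as points, for 15 gene lists with the number of genes in brackets; the black bar is the median of the list and the dotted line the median of 2 over all protein-coding genes. The median is 11 in the neural ectoderm list, 6 in the naive pluripotency list and 0 in the blood and immune list.

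Some gene families were almost without open regions. Of 1110 olfactory receptor genes, 952 had no interval at 96 h, 85.8%, against 21.6% of all genes, and they make up 20.2% of the genes without one. Vomeronasal receptor genes had none at 303 of 355, taste receptor genes at 33 of 38, secretoglobin genes at 36 of 40, keratin-associated protein genes at 44 of 56 and defensin genes at 54 of 70. By contrast, 0 of 69 Rab genes, which encode GTPases of membrane traffic, 0 of 18 Cdk, 0 of 19 Wnt, 0 of 19 Sox and 0 of 9 Pax genes lacked an interval. Apart from Rab, these families have only 9 to 19 genes. The Pax genes had the highest median of these families, 12 intervals, at a median locus of 196 kb. Histone cluster genes had a median of 1 interval but a density of 18.9 for each 100 kb, at loci of 7.12 kb, and ribosomal protein genes had 13.5. Members of these families are near-copies in many cases, so reads from them may not map uniquely, and an effect of this on the counts was not tested.

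By chromosome, chromosome 11 had the highest density at gene loci, 61.3 intervals for each Mb, followed by chromosome 19 with 50.5. The autosome with the lowest was chromosome 13, with 34.7, chromosome X had 13.4 and Y had 0.574. Chromosome Y held 25 intervals at 96 h, and 17 and 20 in 2iL and at 48 h. The order of 11 first and X and Y last was the same in the 2iL list, with 70.5, 14.4 and 0.390, and in the 48 h list, with 70.5, 14.8 and 0.459.

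MicroRNA hairpins are not among the protein-coding genes and were looked up on their own. Of 1005 hairpins with RefSeq positions, 277 lay within 1 kb of a 96 h interval, 27.6% (24.8 to 30.4), against 29.4% in 2iL and 30.5% at 48 h. The mature sequences of the pluripotency clusters miR-302 and miR-290, of the neural miR-9 and of let-7, which rises as cells differentiate, are shown from RefSeq on GRCm38.p6, with bases 2 to 8, the seed that pairs with targets, in capitals.
miR-302b-3p, chr3:127545275-127545297, plus strand: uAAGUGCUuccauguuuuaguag
miR-302d-3p, chr3:127545665-127545687, plus strand: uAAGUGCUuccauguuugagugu
miR-294-3p, chr7:3220691-3220712, plus strand: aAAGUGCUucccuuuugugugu
miR-295-3p, chr7:3220815-3220837, plus strand: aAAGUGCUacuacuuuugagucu
miR-9-5p, chr3:88215613-88215635, plus strand: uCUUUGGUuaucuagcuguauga
let-7i-5p, chr10:122985698-122985719, minus strand: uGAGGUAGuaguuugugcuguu
The miR-9 position is that of Mir9-1, 1 of 3 copies. The first 4 share the seed AAGUGCU although they come from clusters on chromosomes 3 and 7. An interval overlapped the Mir302b hairpin in every list, with folds of 12.9, 12.5 and 7.17 in 2iL, at 48 h and at 96 h, while 3, 4 and 6 intervals lay within 10 kb. Around Mir294 and Mir295 no list had an overlapping interval, and the nearest at 96 h were 756 and 639 bp away, with 5, 4 and 4 intervals within 10 kb. All 3 copies of miR-9 were overlapped in every list, with 96 h folds of 10.8 at Mir9-1, 8.55 at Mir9-2 and 8.70 at Mir9-3. Mir9-3 had 4, 8 and 8 intervals within 10 kb. Mirlet7i was overlapped in every list, with a 96 h fold of 7.92. Mirlet7g and Mirlet7b, the other let-7 hairpins looked up, were overlapped in no list. Their nearest 96 h intervals lay 7271 and 1976 bp away, while the 2iL interval nearest to Mirlet7g lay 538 bp away. The muscle miRNA Mir206 had no interval within 10 kb in any list, the nearest at 96 h being 124288 bp away. Mir208a, also looked up as tissue-restricted, was overlapped in no list but had 2, 3 and 2 intervals within 10 kb.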

How the data were processed

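Chromatin was profiled by ATAC-seq in 6 samples of 3 groups. The authors deposited 1 peak list for each group, shared by its samples A and B, with a score, a fold enrichment over background and a −log10 p for each summit. Per the submitters' processing notes, reads were handled with Picard, SAMtools, BWA and bcl2fastq 2.20.0.422 on build mm10. The sources used here do not name the peak caller, its settings or any filter of problem regions. The deposited scores were not used beyond a check of their range, 540 to 1000. The deposited fold and −log10 p described and ranked intervals within a list.

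Summits with equal interval bounds were taken as 1 interval, represented by the summit with the highest −log10 p, and positions were counted from 1. The pile of tags at a summit was solved from fold and −log10 p with a Poisson tail, and a value was accepted as whole within 0.02. Genes were the 21887 protein-coding genes of a RefSeq table on GRCm38.p6. RefSeq promoter windows gave the direction of 17492 of them, 79.9%. Intervals were set against each other by an overlap of at least 1 bp. Shares carry exact Clopper-Pearson 95% intervals, which cover counting error only. With 1 list per group no test was run. The genes named were the 15 with the most intervals, the 10 with the highest density, the 8 with the widest gene-end interval, the 5 strongest intervals at gene ends and the 5 strongest at distal sites, and in each of 15 gene lists the 3 members with the most intervals and those with none. Ties went to the gene with more summits, and some genes that the rule names are not reported here. All 268 entries of the lists matched the gene table. The members and lists were chosen with earlier results of these data known, and the microRNA list, the promoters printed and the families were chosen after the files were seen. The scripts were tested on simulated data. Python 3.11.15, numpy 2.4.6, pandas 2.3.3 and scipy 1.17.1 were used. Alternatives changed the distance to a gene, the gene set, the threshold, the joining of intervals and the overlap.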

Additional observations from a re-analysis of the deposited data

How the results depend on the processing

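With 1 pooled list per group, leaving out a replicate could not be run, and the error between samples is unknown. No paired analysis was possible because samples A and B of each group share 1 list. The share of 96 h intervals at gene ends, 19.6%, was 15.8% within 500 bp, 27.0% within 2500 bp, 25.4% with all genes of the table, 26.7% with every summit counted on its own, and 32.1% for the 50% of intervals with the highest −log10 p. That stricter list also gave a median width of 844 bp, more than 1 summit in 78.9%, an interval at 70.3% of genes, 135 genes with at least 10 intervals and 221 intervals at the 15 named genes. Stricter lists at all times gave overlaps of 68.4% with 2iL and 83.4% with 48 h, and an overlap of at least 50% of both intervals gave 58.2% and 74.9%. Joining intervals closer than 500 bp gave a median width of 673 bp. Counting by the nearest gene body gave an interval at 77.6% of genes, and all genes of the table gave 60.2% and 425 genes with at least 10. A limit of 50 kb gave 840 such genes. Alternatives chosen after seeing the data gave 729 intervals at the gene lists and a summit in 53.3% of promoter windows with the stricter list, and an interval at 78.8% of genes without those listed in the first 3 Mb.

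Of the 15 genes with the most intervals, 9 stayed at or above the rank of the 15th with a limit of 50 kb, where Bcor was first, 9 with the stricter list and 13 with joined intervals, where Septin9 was first in both. By the nearest gene body 4 did, with Gse1 first at 65 intervals. The neural ectoderm median of 11 was 8 with a limit of 50 kb, 11 by gene body, 5 with the stricter list and 10 with joined intervals. That of the axon guidance list, 7.5, was 15 by gene body.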
